A study of Mus musculus with 12 samples.

Results

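The BCL2 family decides whether a cell keeps its mitochondria intact, and 10 of its genes were followed here in oligodendrocytes sorted from mouse brain. The members were chosen by symbol from a table of 55376 symbols as the genes of the family other than Bax and Bbc3, namely Bcl2, Bcl2l1, Mcl1, Bak1, Bcl2l11, Bid, Pmaip1, Bad, Bmf and Hrk. All 10 were found and all 10 were among the 17716 genes tested, those that reached 1 CPM, a count scaled to its library's total, in 4 or more of the 12 samples. RNA was sequenced from live O1+ CD45- cells of mice at postnatal day 40, all labelled C57BL/6, with 4 samples of each of 3 genotypes and the cells of 2 brains in each sample. O1 is a surface lipid of differentiating oligodendrocytes and CD45 is a leukocyte marker. WT mice were compared with Cnp-Cre Jab1fl/fl mice, in which Cre driven by the Cnp gene deletes Jab1 in late oligodendrocyte precursors and oligodendrocytes, and with Cnp-Cre Jab1fl/fl p21CIP1-/- mice (double mutants), which carry the same deletion and lack the cell cycle inhibitor p21 in every cell. The p21 allele was made in 129S6/SvEvTac and backcrossed. JAB1 carries the protease activity of the COP9 signalosome, which removes NEDD8 from cullin ubiquitin ligases.

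In the intrinsic pathway of apoptosis, pro-survival proteins such as BCL2, BCL-XL and MCL1 hold the effectors BAX and BAK in check. BH3-only proteins, which share a single short domain with the rest of the family, bind the pro-survival proteins or activate the effectors directly. Freed effectors form pores in the outer mitochondrial membrane, cytochrome c escapes and caspases are activated. Developing oligodendrocytes that find no axon to myelinate die by apoptosis, and many members are regulated on the protein as well as on the RNA, so an mRNA level is only a part of their control.

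None of the 10 members passed the test of a difference between genotypes in any of the 3 comparisons. The family's transcripts came mostly from 4 genes. Bcl2l1, Mcl1, Bcl2 and Bad together made up 87.3% to 97.7% of the summed level per length (TPM, counts scaled for gene length and library) of the 10 members in the 12 samples, and the other 6 members each averaged less than 10 CPM. The order among these genes and their values in each sample are given first, followed by the comparisons.

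Total counts per sample were 61485556 to 153495112. The targeted gene Cops5, which encodes JAB1, averaged 103 ± 39.7 CPM in WT (SD, n = 4), 66.9 ± 18.0 CPM in Cnp-Cre Jab1fl/fl and 58.6 ± 21.5 CPM in double mutants, and neither difference from WT passed the test (edgeR's quasi-likelihood test, adjusted p = 0.349 and 0.424). Cdkn1a, which encodes p21, averaged 41.6 ± 31.4 CPM in WT, 452 ± 124 CPM in Cnp-Cre Jab1fl/fl and 88.4 ± 17.9 CPM in double mutants, so counts of the gene were found in samples labelled as lacking p21. Cdkn1a was higher in Cnp-Cre Jab1fl/fl than in WT (log2 fold change 3.44, edgeR adjusted p = 0.00440). Double mutants, at 64.7 to 103 CPM, were below Cnp-Cre Jab1fl/fl, at 379 to 637 CPM (log2 fold change -2.35). DESeq2 called this difference (adjusted p = 1.57e-10) and edgeR did not (adjusted p = 0.0916). The labels do not give the exons that the p21 allele or the Jab1 deletion removes, and counts per gene do not separate them. The levels of Cdkn1a and Cops5 therefore do not check the labels. Marker genes of oligodendrocytes and of other cell types moved with the Cnp-Cre Jab1fl/fl genotype. The summed level of 12 mature oligodendrocyte markers was 45996 to 106964 CPM for WT, 9066 to 35573 CPM for Cnp-Cre Jab1fl/fl and 17018 to 53275 CPM for double mutants, and 7 of the 12 were lower in Cnp-Cre Jab1fl/fl (edgeR). The summed level of 20 microglia markers was 151 to 357 CPM for WT, 1401 to 3556 CPM for Cnp-Cre Jab1fl/fl and 540 to 23728 CPM for double mutants, and 19 of the 20 were higher in Cnp-Cre Jab1fl/fl, although the sort left out CD45+ cells. In double mutants against WT, 0 of the 12 and 0 of the 20 were called by edgeR (7 and 20 at an unadjusted p of 0.05), and DESeq2 called 6 as lower and 13 as higher. The highest microglia sum was that of double mutant replicate 3. The summed level of 10 astrocyte markers was 5653 to 14084 CPM for WT, 3646 to 8724 CPM for Cnp-Cre Jab1fl/fl and 4130 to 11264 CPM for double mutants. Between Cnp-Cre Jab1fl/fl and WT, edgeR called 0 of the 10 and DESeq2 called 1 as lower. When the sorted cells were reanalysed, the paper saw no overt CD45+ cells in any genotype, but the purity of O1+ cells was incomplete. It allows for a small share of other cells among those sorted. In bulk RNA, fewer cells of a type and less RNA per cell cannot be told apart, and the part of these shifts in the values of the members was not tested.

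Promoter windows of 300 bases (250 before to 50 after the annotated start, RefSeq, GRCm38.p6) were found for 9 of the 10 members, with 15 windows in all. Pmaip1 had no entry. The windows were searched on both strands for the FOXO site GTAAACA, the cyclic AMP response element (CRE) TGACGTCA, its core TGACGT, which lies within it, and the composite CHOP-ATF4 site TGATGCAA, since FOXO factors, CREB and CHOP are textbook regulators of BCL2 family genes. Of the 15 windows, 2 held one of these motifs, and they are shown with the motif in capitals. The first lies at chr2:128125788-128126087 on the forward strand and the second at chr1:106714241-106714540 on the reverse strand.
Bcl2l11: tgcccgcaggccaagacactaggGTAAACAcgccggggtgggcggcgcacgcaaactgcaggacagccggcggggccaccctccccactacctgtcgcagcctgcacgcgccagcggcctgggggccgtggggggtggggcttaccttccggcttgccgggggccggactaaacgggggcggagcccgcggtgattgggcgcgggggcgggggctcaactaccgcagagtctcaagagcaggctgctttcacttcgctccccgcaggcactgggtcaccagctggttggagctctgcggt
Bcl2: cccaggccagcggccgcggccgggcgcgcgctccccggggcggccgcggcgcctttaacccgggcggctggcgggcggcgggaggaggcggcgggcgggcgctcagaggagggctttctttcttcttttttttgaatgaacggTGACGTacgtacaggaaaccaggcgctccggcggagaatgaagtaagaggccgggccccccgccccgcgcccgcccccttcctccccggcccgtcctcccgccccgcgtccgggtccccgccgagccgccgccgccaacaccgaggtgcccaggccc
In Bcl2l11, the gene of BIM and a known FOXO target, the FOXO site lay 227 to 221 bases before the start, and 3.65% of 32851 mouse promoters hold that motif. In Bcl2 the CRE core lay 107 to 102 bases before the start, and 7.51% of promoters hold it. The full CRE (1.79% of promoters) and the CHOP-ATF4 site (0.895% of promoters) were in none of the members' windows. These matches describe letters in these windows and were not tested as binding sites.

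Bcl2l1 was the member with the highest level per length. It had the highest TPM of the 10 members in 10 of 12 samples. It encodes BCL-XL, the main pro-survival protein of many mature neural cells, together with a shorter pro-apoptotic splice form that counts per gene do not separate, and lies at chr2:152780668-152831728 on the reverse strand. In WT it was at 123, 180, 193 and 88.0 CPM in replicates 1, 3, 5 and 6. In Cnp-Cre Jab1fl/fl it was at 158, 130, 93.2 and 137 CPM in replicates 1 to 4. In double mutants it was at 177, 183, 194 and 135 CPM in replicates 1, 2, 3 and 5. The 3 groups overlapped, with WT spanning nearly the whole range. The log2 fold change against WT was -0.17 (SE 0.32, adjusted p = 0.808) in Cnp-Cre Jab1fl/fl and 0.23 (SE 0.31, adjusted p = 0.811) in double mutants. For Cnp-Cre Jab1fl/fl against WT, the 95% interval of the fold ran from 0.547 to 1.44, so a doubling of Bcl2l1 lies outside it.

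Bcl2, the founding member of the family, lies at chr1:106538178-106714274 on the reverse strand. In WT replicates 1, 3, 5 and 6 it was at 106, 169, 70.9 and 165 CPM. In Cnp-Cre Jab1fl/fl replicates 1 to 4 it was at 73.8, 63.4, 109 and 74.9 CPM. In double mutant replicates 1, 2, 3 and 5 it was at 37.3, 138, 93.6 and 71.5 CPM. Of the 8 mutant samples, 6 were below the 3 higher WT samples, but WT replicate 5 lay among them. Summed astrocyte markers were also highest of WT in replicate 3 (14084 CPM) and lowest in replicate 5 (5653 CPM). Among double mutants they were lowest in replicate 1 (4130 CPM), as Bcl2 was. In each mutant genotype, however, the sample with the most Bcl2 was not the highest for these markers. The summed level of 8 markers of oligodendrocyte precursors was highest in the sample with the most Bcl2 in each genotype. These were WT replicate 3 (1073 CPM), Cnp-Cre Jab1fl/fl replicate 3 (719 CPM) and double mutant replicate 2 (729 CPM). It was also lowest where Bcl2 was in WT (replicate 5, 410 CPM) and double mutants (replicate 1, 336 CPM). In Cnp-Cre Jab1fl/fl it was lowest in replicate 4 (429 CPM), and Bcl2 in replicate 2. The part of either set of markers in the level of Bcl2 was not tested. The log2 fold change against WT was -0.67 (SE 0.34, unadjusted p = 0.0705, adjusted p = 0.269) in Cnp-Cre Jab1fl/fl and -0.60 (SE 0.43, adjusted p = 0.611) in double mutants. The interval of the fold in Cnp-Cre Jab1fl/fl, 0.377 to 1.05, included no change. Of the exon bases of Bcl2, 558 (6.1%) are shared with D630008O14Rik on the other strand, and reads from the overlap cannot be assigned without strand information.

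Mcl1 encodes a short-lived pro-survival protein that binds BAK, BIM and NOXA, and lies at chr3:95658788-95663176 on the forward strand. It was at 58.7, 71.8, 67.9 and 44.4 CPM in WT replicates 1, 3, 5 and 6. It was at 122, 82.5, 90.7 and 47.7 CPM in Cnp-Cre Jab1fl/fl replicates 1 to 4, and at 50.4, 71.0, 84.6 and 82.4 CPM in double mutant replicates 1, 2, 3 and 5. Of the Cnp-Cre Jab1fl/fl samples, 3 of 4 were above every WT sample, while replicate 4 lay within the WT range. It differed from WT by a log2 fold change of 0.50 in Cnp-Cre Jab1fl/fl (SE 0.32, adjusted p = 0.411), and by 0.24 in double mutants (SE 0.28, adjusted p = 0.783). The interval of the fold against WT was 0.863 to 2.31 in Cnp-Cre Jab1fl/fl and 0.763 to 1.82 in double mutants.

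**Figure D1:**
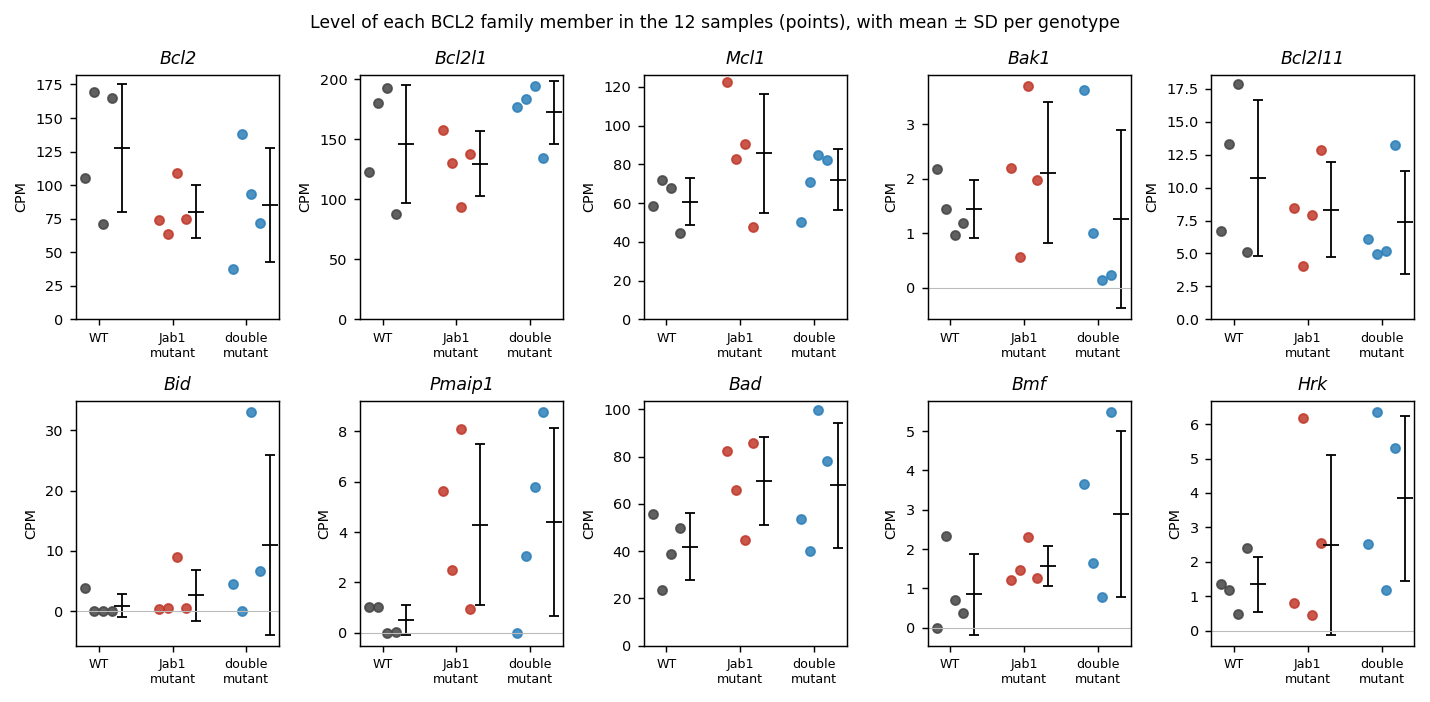
CPM of each member in the 12 samples (points, 4 per genotype) with the mean and SD beside them; Jab1 mutant stands for Cnp-Cre Jab1fl/fl and double mutant for Cnp-Cre Jab1fl/fl p21CIP1-/-. For every member the samples of the 3 genotypes overlap, and Bid reaches 33.0 CPM in a single double mutant sample.

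The pro-survival genes were also set against each other within samples. Of their summed TPM, Bcl2l1 contributed 42.2% to 64.3% in WT samples, 38.4% to 61.5% in those of Cnp-Cre Jab1fl/fl and 52.1% to 70.8% in double mutants. The share of Mcl1 spanned 24.2% to 28.5% among WT samples and 24.3% to 42.5% among Cnp-Cre Jab1fl/fl samples, of which replicates 1, 2 and 3 were above all of WT. Bcl2 had a median share of 20.3% in WT, 12.5% in Cnp-Cre Jab1fl/fl and 11.9% in double mutants, and reached 33.6% in WT replicate 6. The sum of the 3 genes was 167 ± 54.6 TPM in WT, 139 ± 13.7 TPM in Cnp-Cre Jab1fl/fl and 158 ± 35.0 TPM in double mutants (SD, n = 4), differences smaller than the spread between WT samples.

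Bak1, the only effector among the members, was rare in these cells. Its product forms pores in the outer mitochondrial membrane, and it lies at chr17:27019810-27029009 on the reverse strand. It ranged from 0.969 to 2.17 CPM in WT, from 0.566 to 3.71 CPM in Cnp-Cre Jab1fl/fl and from 0.136 to 3.63 CPM in double mutants. Its log2 fold change was 0.55 (SE 0.90, adjusted p = 0.780) in Cnp-Cre Jab1fl/fl and -0.23 (SE 1.13, adjusted p = 0.959) in double mutants. Per length, Bak1 was at 1.45 ± 0.53 TPM in WT, against 185 ± 18.7 TPM for the other main effector, Bax, which is no member and is named here after its level was seen. Bak1 is on the same chromosome as Cdkn1a, the locus targeted in double mutants. Exons of Bak1 overlap those annotated for Ggnbp1 on the other strand over 177 bases (7.4%).

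Among the BH3-only genes, Bad had the highest level in all 3 genotypes. Its product binds BCL2 and BCL-XL and is kept inactive by phosphorylation and 14-3-3 proteins. It lies at chr19:6941861-6951899 on the forward strand. It was at 55.7, 23.6, 38.6 and 49.9 CPM in WT replicates 1, 3, 5 and 6. It was at 82.4, 65.7, 44.8 and 85.5 CPM in Cnp-Cre Jab1fl/fl replicates 1 to 4, and at 53.6, 40.0, 99.7 and 78.2 CPM in double mutant replicates 1, 2, 3 and 5. Of the Cnp-Cre Jab1fl/fl samples, 3 of 4 were above every WT sample and replicate 3 lay within the WT range. The log2 fold change was 0.73 (SE 0.34, unadjusted p = 0.0535, adjusted p = 0.230) in Cnp-Cre Jab1fl/fl, with an interval of the fold from 0.991 to 2.78, and 0.68 (SE 0.38, adjusted p = 0.495) in double mutants. Bad shares 517 exon bases (21.6%) with Gpr137 on the other strand, so its counts are uncertain without strand information.

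Bcl2l11, whose product BIM binds every pro-survival protein of the family, lies at chr2:128126038-128162547 on the forward strand. It ranged from 5.10 to 17.9 CPM in WT, from 4.02 to 12.8 CPM in Cnp-Cre Jab1fl/fl and from 4.98 to 13.2 CPM in double mutants. Of the 8 mutant samples, 6 lay within the WT range. Fitted log2 fold changes were -0.37 (SE 0.57, adjusted p = 0.764) in Cnp-Cre Jab1fl/fl and -0.56 (SE 0.57, adjusted p = 0.739) in double mutants.

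Pmaip1 encodes NOXA, a p53 target that binds MCL1, and had the largest fitted difference from WT of the 10 members in Cnp-Cre Jab1fl/fl. It had 114, 160, 0 and 1 counts in WT replicates 1, 3, 5 and 6, that is 1.03, 1.03, 0 and 0.0108 CPM. It had 443, 301, 549 and 71 counts in Cnp-Cre Jab1fl/fl replicates 1 to 4, up to 8.08 CPM, and 0, 386, 593 and 838 counts in double mutant replicates 1, 2, 3 and 5, up to 8.77 CPM. In both mutant genotypes 3 of 4 samples were above every WT sample, and the remaining sample, at 0.955 CPM in Cnp-Cre Jab1fl/fl and 0 in double mutants, was within the WT range. The log2 fold change was 3.04 (SE 1.57, adjusted p = 0.284) in Cnp-Cre Jab1fl/fl and 3.08 (SE 1.94, adjusted p = 0.556) in double mutants. The interval of the fold in Cnp-Cre Jab1fl/fl ran from 0.759 to 89.4, so neither no change nor a large rise lies outside it. DESeq2 gave an unadjusted p of 0.0289 and an adjusted p of 0.133 for Cnp-Cre Jab1fl/fl against WT.

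Bid, which caspase-8 cleaves to link death receptors to mitochondria, was detected unevenly. It lies at chr6:120891930-120916853 on the reverse strand. Its counts were 418, 7, 0 and 0 in WT replicates 1, 3, 5 and 6, and 28, 74, 615 and 35 in Cnp-Cre Jab1fl/fl replicates 1 to 4. In double mutant replicates 1, 2, 3 and 5 they were 427, 0, 3392 and 635. One sample stood above the others in each genotype, at 3.79 CPM in WT, 9.05 CPM in Cnp-Cre Jab1fl/fl and 33.0 CPM in double mutants. The log2 fold change was 1.45 (SE 1.99, adjusted p = 0.731) in Cnp-Cre Jab1fl/fl and -0.99 (adjusted p = 0.841) without Cnp-Cre Jab1fl/fl replicate 3. Without WT replicate 1 it was 7.24 (adjusted p = 0.0926), the smallest adjusted p of any member under any alternative. In double mutants it was 3.53 (SE 2.26, adjusted p = 0.562), and 1.95 (adjusted p = 0.823) without replicate 3, the sample with the highest microglia markers. Those markers' part in the level of Bid was not tested.

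Bmf and Hrk, the remaining BH3-only genes, were low throughout. BMF is held by a dynein light chain in healthy cells, and HRK binds BCL2 and BCL-XL and is best known from neurons. Bmf ranged from 0 to 2.34 CPM across WT samples, from 1.22 to 2.31 CPM in Cnp-Cre Jab1fl/fl and from 0.789 to 5.48 CPM in double mutants. Hrk ranged from 0.475 to 2.41 CPM in WT, from 0.471 to 6.17 CPM in Cnp-Cre Jab1fl/fl and from 1.19 to 6.35 CPM in double mutants. For Bmf only double mutant samples, and for Hrk samples of both mutant genotypes, exceeded every WT sample, and other mutant samples did not. The log2 fold changes in Cnp-Cre Jab1fl/fl were 0.87 (SE 1.37, adjusted p = 0.771) for Bmf and 0.88 (SE 1.04, adjusted p = 0.680) for Hrk. The latter turned to -0.089 without Cnp-Cre Jab1fl/fl replicate 2. In double mutants they were 1.74 (SE 1.41, adjusted p = 0.655) and 1.49 (SE 0.85, adjusted p = 0.516). Summed neuron markers were highest of Cnp-Cre Jab1fl/fl in replicate 2 (757 CPM), as Hrk was. Among double mutants they were highest in replicate 5 (754 CPM), whereas Hrk was highest in replicate 2. The part of these markers in the level of Hrk was not tested. Counts of 3 or fewer were found for Bid and Pmaip1 in 3 samples each and for Bmf in 1 sample, and 20.5% of all genes tested have at least 1 such sample.

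The summed TPM of the 6 BH3-only genes was 37.0 to 59.0 among WT samples, 63.3 to 81.0 among Cnp-Cre Jab1fl/fl samples and 50.8 to 106 among double mutants. The ranges of WT and Cnp-Cre Jab1fl/fl did not touch, at 59.0 and 63.3 TPM. This is given as a description, since the sum was formed over members chosen with results known. Of single genes tested, 17.1% did not overlap between these genotypes in CPM. In Cnp-Cre Jab1fl/fl replicate 3 the sum was 65.5 TPM, of which Bid, outlying in that sample, gave 9.83 TPM. Bad alone overlapped, at 44.5 TPM in that sample against 51.6 TPM in WT replicate 1. It made up 68.0% to 94.3% of the BH3-only sum in the 12 samples. The ratio of summed pro-survival to summed BH3-only TPM was 2.27 to 6.66 among WT samples, 1.48 to 2.27 among Cnp-Cre Jab1fl/fl samples and 1.42 to 4.14 among double mutants, so that the lowest WT sample stood beside the highest Cnp-Cre Jab1fl/fl sample.

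**Figure D2:**
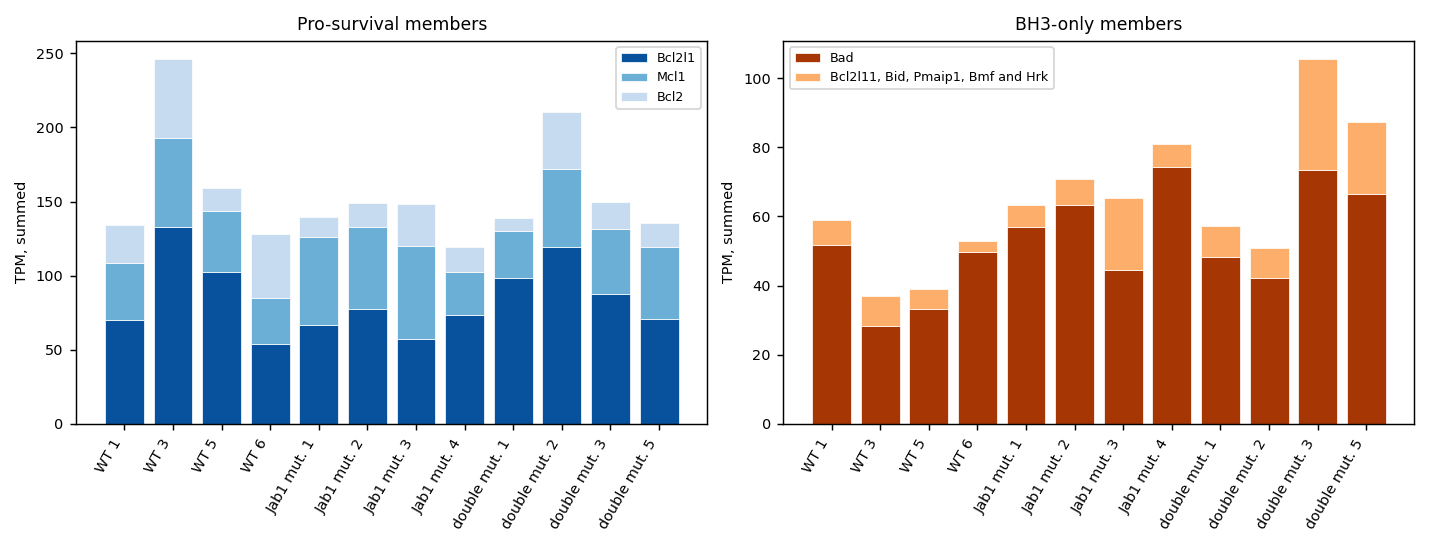
Summed TPM of the pro-survival members (left, split into Bcl2l1, Mcl1 and Bcl2) and of the BH3-only members (right, split into Bad and the other 5) in each of the 12 samples, with the replicate number after the genotype. The tallest pro-survival bar is WT replicate 3 at 246 TPM and the tallest BH3-only bar is double mutant replicate 3 at 106 TPM.

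By mean TPM in WT the order was Bcl2l1 (89.9), Mcl1 (42.6), Bad (40.7), Bcl2 (34.4), Bcl2l11 (3.70), Bak1 (1.45), Bid (0.974), Hrk (0.610), Pmaip1 (0.483) and Bmf (0.470). The step from Bcl2 to Bcl2l11 was the only one between neighbours at which the ranges of the 4 WT samples did not overlap. Bcl2l1 was above Mcl1 in 4 of 4 WT samples, whereas Mcl1 was above Bad in 2 of 4. In Cnp-Cre Jab1fl/fl the order of the first members was Bcl2l1 (68.7), Bad (59.8), Mcl1 (51.8) and Bcl2 (18.6). In double mutants it was Bcl2l1 (94.0), Bad (57.6), Mcl1 (44.2) and Bcl2 (20.2). Mcl1 was above Bcl2 in every sample of these 2 genotypes, and in 11 of 12 samples when WT was included.

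Samples labelled Cnp-Cre Jab1fl/fl were compared with WT to ask which genes of this family differ after deletion of Jab1. Cops5 itself did not pass the test between them, but its counts per gene do not check the deletion. Of the 10 members, 0 passed an adjusted p of 0.05 in edgeR, against 7.64% of all genes tested (1354 of 17716). The count was also 0 at an unadjusted p of 0.05, against 22.5% of all genes, and 0 with DESeq2, against 15.2%. In 0 members did the samples of the 2 genotypes not overlap, against 17.1% of all genes. DESeq2 gave no p for Bid in this comparison. The median log2 fold change of the members was 0.64, beside 0.02 over all genes. Of the members, 7 of 10 were above 0, beside 50.96% of all genes. Pmaip1, Bid, Hrk and Bmf, which had the largest values, had SEs of 1.04 to 1.99. The fits were less precise for the rare members, with a median SE of 1.20 for the BH3-only genes, 0.32 for the pro-survival genes and 0.53 for all genes.

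Double mutants were compared with Cnp-Cre Jab1fl/fl to ask what p21 loss adds, and with WT, from which they differ in both Jab1 and p21. The 3 genotypes do not include p21 loss without the Jab1 deletion. Both comparisons share samples with the first. Against WT, 0 of 10 members were called by edgeR, against 0.192% of all genes (34 of 17716), and 0 by DESeq2, against 4.87%. Again 0 passed at an unadjusted p of 0.05, against 12.4%, and 0 had groups that did not overlap, against 8.1%. Against Cnp-Cre Jab1fl/fl, edgeR called 0 members and 0% of all genes, and DESeq2 0 members and 0.491% of all genes. At an unadjusted p of 0.05 the share of all genes was 5%, and that of genes without overlap 3.22%, with 0 members in either. The log2 fold changes of the pro-survival genes between the mutant genotypes were 0.09 (SE 0.39) for Bcl2, 0.41 (SE 0.28) for Bcl2l1 and -0.25 (SE 0.34) for Mcl1, each with an adjusted p of at least 0.996. The interval of the fold was 0.582 to 1.94 for Bcl2, 0.867 to 2.04 for Bcl2l1 and 0.501 to 1.41 for Mcl1, and 0.564 to 1.68 for Bad. For the rarest genes it was far wider, such as 0.122 to 8.61 for Pmaip1.

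**Figure D3:**
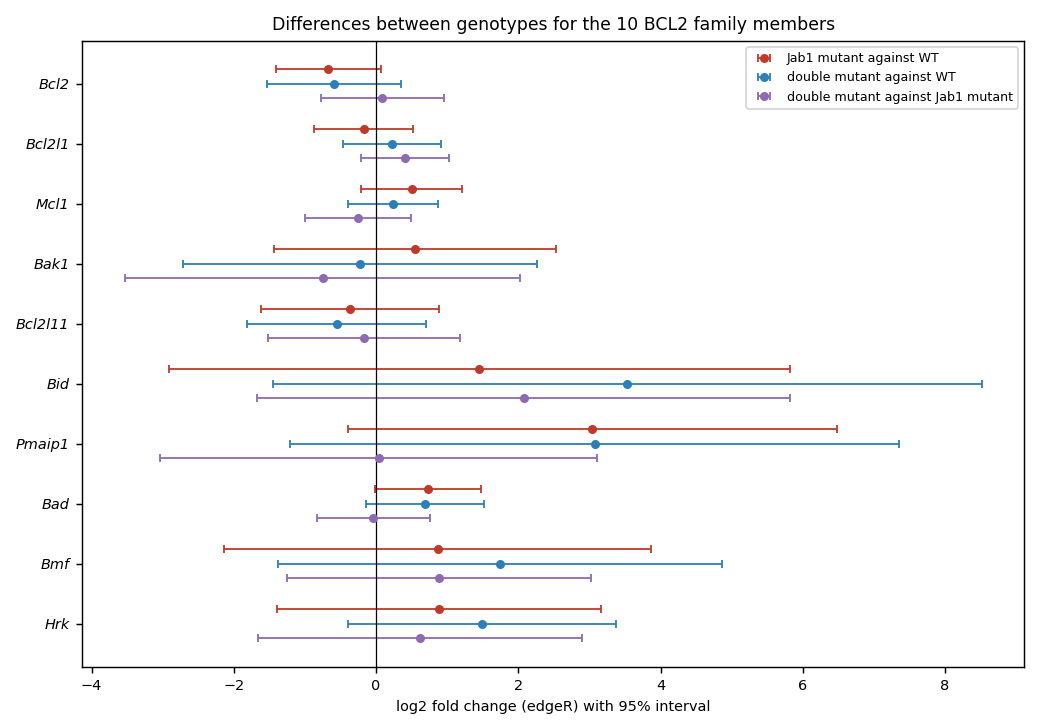
Log2 fold change of each member (points) with its 95% interval (lines) from edgeR in the 3 comparisons, with Jab1 mutant for Cnp-Cre Jab1fl/fl. Every interval includes 0. Those of Bcl2, Bcl2l1, Mcl1 and Bad are narrower than those of the other members, though several of them include a doubling. Those of Bid and Pmaip1 span several units.

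Genes around the family were examined from 4 lists, and edgeR called 11 of their 53 tested genes between Cnp-Cre Jab1fl/fl and WT (20.8%, beside 7.64% of all genes), DESeq2 15 (28.3%, beside 15.2%). Whether these lists differ from the members or from other genes was not tested. Of 14 other BCL2 family genes, 10 were tested and 2 were higher in Cnp-Cre Jab1fl/fl, the pro-survival genes Bcl2a1a and Bcl2a1b. These rose from 0 to 4 counts per WT sample to 20 to 262 counts for Bcl2a1a (adjusted p = 0.0280, edgeR) and from 0 to 13 counts to 171 to 356 counts for Bcl2a1b (adjusted p = 0.0477). Bcl2a1a, Bcl2a1b and Bcl2a1d are near-identical copies, so the split of reads between them is uncertain, and they are best known from blood cells. The microglia markers were higher in the same Cnp-Cre Jab1fl/fl samples (1401 to 3556 CPM against 151 to 357 CPM in sum), and double mutant replicate 3, with the highest microglia sum, also had the highest Bcl2a1a (19.2 CPM) and Bcl2a1b (13.5 CPM), a relation that was not tested. Both calls ended in a joint fit of all 12 samples and without the filter. Of 17 executors of intrinsic apoptosis, all were tested and 2 were higher, with 0 lower. Casp6, an executioner caspase, had a log2 fold change of 1.63 (SE 0.34, adjusted p = 0.0172), from 11.9 ± 3.47 CPM in WT to 36.8 ± 4.58 CPM. Birc3, an inhibitor of apoptosis, had a log2 fold change of 2.73 (SE 0.71, adjusted p = 0.0392). Its Cnp-Cre Jab1fl/fl samples spread from 5.33 to 35.8 CPM, and its call ended in a joint fit of all 12 samples and without the filter.

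Of 11 genes of the death receptor pathway, 10 were tested, 3 were higher in Cnp-Cre Jab1fl/fl and 0 were lower. Casp8, the initiator caspase that cleaves BID, was at 3.20 ± 2.95 CPM in WT and 38.2 ± 15.1 CPM in Cnp-Cre Jab1fl/fl (log2 fold change 3.58, SE 0.81, adjusted p = 0.0235). The receptor gene Fas was at 8.50 ± 4.09 CPM in WT and 40.7 ± 21.1 CPM in Cnp-Cre Jab1fl/fl (log2 fold change 2.26, SE 0.49, adjusted p = 0.0197). Tnfsf10, which encodes the ligand TRAIL, rose with a log2 fold change of 3.35 (SE 0.89, adjusted p = 0.0442). The calls of Casp8 and Fas ended in a joint fit of all 12 samples, and that of Tnfsf10 without the filter on low counts. In the same Cnp-Cre Jab1fl/fl samples microglia, endothelial and mural cell markers were higher (19 of 20, 6 of 10 and 4 of 8 called), and their part in these differences was not tested.

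Of 17 regulators of the family, 16 were tested, 4 were higher in Cnp-Cre Jab1fl/fl and 0 were lower. Ddit3, which encodes the stress factor CHOP, was at 45.8 ± 14.8 CPM in WT and 225 ± 135 CPM in Cnp-Cre Jab1fl/fl (log2 fold change 2.30, SE 0.47, adjusted p = 0.0158). Fbxw7, part of a ubiquitin ligase that targets MCL1, had a log2 fold change of 1.54 (SE 0.34, adjusted p = 0.0211), and Trp53, which encodes p53, one of 1.06 (SE 0.27, adjusted p = 0.0360), but neither call held without the filter. Trib3, a pseudokinase gene induced by CHOP, had 0 counts in all WT samples and 246 to 4865 counts in Cnp-Cre Jab1fl/fl, at least 651-fold higher against a floor of 3 counts per WT library (adjusted p = 0.00227), and at least 371-fold without Cnp-Cre Jab1fl/fl replicate 2, the highest sample. In double mutants Trib3 was at 20.7 to 38.2 CPM, at least 976-fold higher than WT (adjusted p = 0.00429), and it was the only gene of the 4 lists that edgeR called in that comparison, whereas DESeq2 called 9. Between the mutant genotypes 0 genes of the 4 lists were called (edgeR), with 4 at an unadjusted p of 0.05 and 0 by DESeq2. With any single sample left out, the calls of Ddit3 and Trib3 in Cnp-Cre Jab1fl/fl held in all 8 fits. The call was lost in 1 of 8 fits for Casp6 (without Cnp-Cre Jab1fl/fl replicate 4), in 3 for Fas and Casp8, in 4 for Bcl2a1a and Fbxw7, in 6 for Bcl2a1b, Birc3 and Tnfsf10 and in 7 for Trp53, and the cause was not tested.

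**Figure D4:**
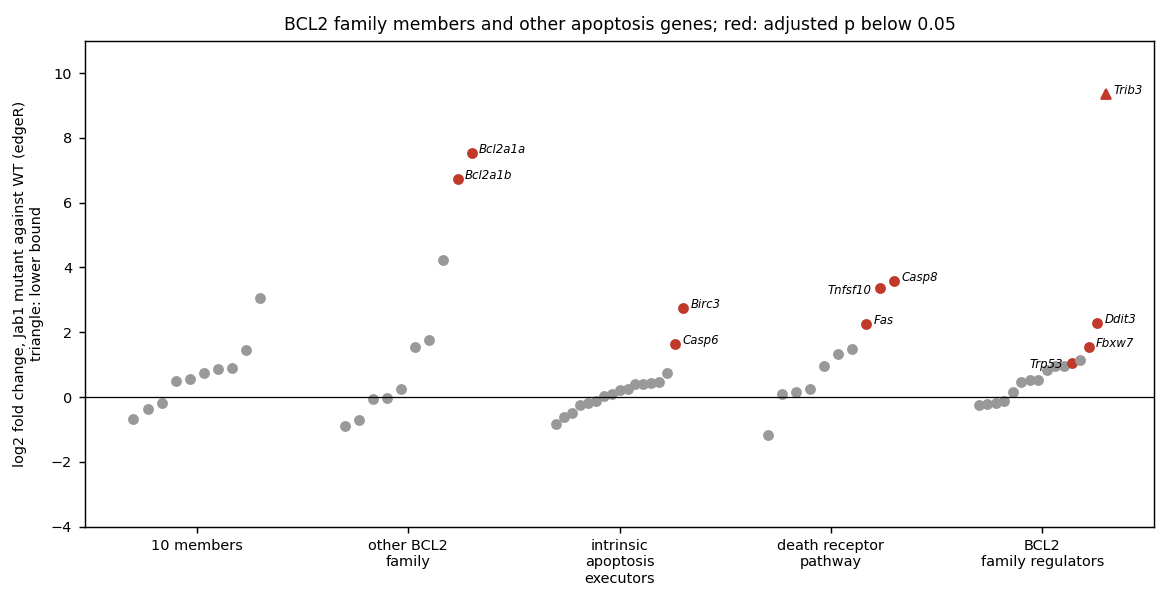
Log2 fold change of Cnp-Cre Jab1fl/fl against WT (edgeR) for the 10 members and for the tested genes of 4 other apoptosis lists, each point a gene and red where the adjusted p is below 0.05. Trib3, at 0 counts in WT, is drawn as a triangle at its lower bound; 0 members and 11 genes of the other lists are red, all above 0.

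The genes whose level followed a member most closely over the 12 samples were looked up for the 3 members with the smallest p, as a description over samples that share genotype and cell composition. For Bad they were Gng5 (Pearson's r = 0.97) and Gm6988 (0.96), for Bcl2 Pitpnc1 (0.94) and Prrx1 (0.92), and for Pmaip1 Atoh8 (0.93) and Cyb561 (0.91), on the log2(CPM + 1) scale.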

How the data were processed

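RNA-Seq was performed on O1+ CD45- cells in 12 samples, 4 per genotype. The deposited table holds raw counts, which the authors obtained with Trimmomatic 0.32, STAR 2.5.3a (genome GRCm38) and featureCounts (GENCODE basic annotation) from SMART-Seq v4 libraries. Strand use and the treatment of reads with several matches are not given in the sources used here. Sample labels gave the genotype and the replicate number, and 0 columns were left out.

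CPM was scaled with TMM factors over all samples, and TPM used exon lengths of GENCODE M21 (54402 symbols matched, 98.2%). For each comparison, edgeR 4.0.16 (R 4.3.3) fitted the quasi-likelihood test to 8 samples, over genes that reached 1 CPM in 4 or more of 12, adjusting p by the Benjamini-Hochberg method over all of them (threshold 0.05). Intervals cover 95%. Scripts were tested on simulated data. Alternatives were DESeq2 1.42.0, upper-quartile normalization, omission of the filter, a 10 CPM minimum mean, a joint fit of the 3 genotypes, a replicate block and leaving out each sample. No sample was a repeat of another (lowest chi-square per degree of freedom between samples of a genotype 160). The p-values measure the spread between pools of 2 brains. Floors of 3 counts cover counting error only, as reads carry no molecular identifiers.

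Named were all 10 members, the 3 genes of each other list with the smallest adjusted p among those called, the 2 genes most correlated with each of the 3 members of smallest p, and the targeted genes. Bax and Trp53 were added after their values were seen. The members and lists were chosen with earlier results of these data known.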

Additional observations from a re-analysis of the deposited data

Results flagged for a closer look

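Samples that stood far from the other 3 of their genotype were sought for each member (30 groups of 4 samples, Dixon's 95% criterion). Gaps and ranges were taken on the log2(CPM + 1) scale. The search found 2, where chance gives about 1 in 20 groups. Both concern Bid. WT replicate 1 was at 3.79 CPM while the other WT samples were at 0 to 0.0452 CPM, and its gap was 0.972 of the range. Cnp-Cre Jab1fl/fl replicate 3 was at 9.05 CPM while the others were at 0.357 to 0.616 CPM, with a gap of 0.913 of the range. The cause was not tested.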

How the results depend on the processing

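Under every alternative run, 0 of the 10 members passed the threshold in each comparison (402 fitted values, smallest adjusted p 0.0926, for Bid without WT replicate 1). Outside the fits with a sample left out, 4 values changed sign. With the replicate block, the log2 fold change of Hrk in Cnp-Cre Jab1fl/fl against WT was -1.03, and between the mutant genotypes that of Bcl2 was -0.033 and that of Pmaip1 -1.69; with upper-quartile normalization the last was -0.00328. Leaving out 1 sample at a time turned 7 directions. In Cnp-Cre Jab1fl/fl against WT, Hrk ranged from -0.089 (without Cnp-Cre Jab1fl/fl replicate 2) to 1.31, and Bid from -0.99 to 7.24. In double mutants against WT, Bak1 ranged from -1.65 to 0.19. Between the mutant genotypes, Bad ranged from -0.26 to 0.15, Bcl2 from -0.25 to 0.34, Pmaip1 from -0.54 to 0.54 and Bcl2l11 from -0.61 to 0.15. The number of all genes called depended more on the processing. For Cnp-Cre Jab1fl/fl against WT it was 2689 with DESeq2, 859 without the filter, 660 with the replicate block and 678 (without WT replicate 5) to 1863 (without Cnp-Cre Jab1fl/fl replicate 2) with a sample left out. For double mutants against WT it was 862 with DESeq2, 20 without the filter, 140 with a mean of at least 10 CPM, 164 with all 12 samples in one fit, 1 with the replicate block and 1 (without double mutant replicate 2) to 274 (without double mutant replicate 1) with a sample left out. Between the mutant genotypes it was 87 with DESeq2, 5 with a mean of at least 10 CPM and 0 to 2 (without Cnp-Cre Jab1fl/fl replicate 2) with a sample left out. The cause was not tested. Of the 11 other apoptosis genes called in Cnp-Cre Jab1fl/fl, 0 changed direction under alternatives chosen after seeing the data, and the replicate block ended the call of 9, all but Casp8 and Trib3. A joint fit of all samples ended it for Bcl2a1a, Bcl2a1b, Birc3, Fas, Casp8 (adjusted p = 0.0602, edgeR) and Trp53, and omission of the filter for Bcl2a1a, Bcl2a1b, Birc3, Tnfsf10, Trp53 and Fbxw7. Fas lost its call without WT replicates 5 or 6 or Cnp-Cre Jab1fl/fl replicate 1, Casp8 without WT replicates 3 or 6 or Cnp-Cre Jab1fl/fl replicate 3, Bcl2a1a without WT replicates 1, 5 or 6 or Cnp-Cre Jab1fl/fl replicate 4, and Fbxw7 without WT replicates 5 or 6 or Cnp-Cre Jab1fl/fl replicates 1 or 3. Bcl2a1b, Birc3, Tnfsf10 and Trp53 lost it without any of 6 or 7 samples. DESeq2 and a mean of at least 10 CPM ended none of the calls they could test, and DESeq2 called Cdkn1a between the mutant genotypes (adjusted p = 1.57e-10), as edgeR did under the 10 CPM minimum (0.0262). Trib3 in double mutants lost its call only with the block (adjusted p = 0.212). Samples with the same number did not deviate together (correlations of -0.19 to 0.08), so the block pairs samples by number only. Of 60 levels in CPM recomputed, 0 moved by over 1 SD. Intervals were widest for members with few counts, and low counts and spread between samples were not separated as their source.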
